A study of Mus musculus with 6 samples.

Results

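The 44 collagen genes of the mouse telencephalon table are described here, chosen as all rows whose symbol has the form of a collagen chain (Col, a type number, a, a chain number), out of 24444 symbols. They comprise 11 fibrillar collagens, 8 basement membrane collagens (the type IV chains with Col15a1 and Col18a1) and 25 others, which are 9 FACIT collagens (collagens that attach to fibrils), 4 transmembrane collagens and 12 beaded filament and further collagens. The data are poly(A) RNA-seq of the telencephalon, the front of the embryonic brain, from C57BL/6J embryos at E12.5. There are 3 libraries labelled wild-type and 3 labelled Arl13b-/-, homozygous for a mutation of Arl13b, a regulatory GTPase found in primary cilia. Each library is named here by group and replicate number. The labels do not say how the allele was made, or whether each library is 1 embryo or a pool, so a p-value here reflects no more than how these libraries vary, possibly for technical reasons. The series concerns primary cilia and the development of axon tracts.

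Collagens are secreted or membrane-bound proteins whose chains wind around each other into a helix. Fibrillar collagens form the cables of connective tissue and are made mainly by mesenchymal cells, which in the developing head lie in the meninges and skin. Type IV collagen forms the sheet of basement membranes, including those of blood vessels and of the brain surface, while FACIT, transmembrane and beaded filament collagens link fibrils, cells and basement membranes. Before secretion the chains are hydroxylated and folded by enzymes and by the chaperone Serpinh1, and after secretion they are trimmed and cross-linked.

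The bases just before the start site are shown for 3 collagens that behaved unlike each other across the libraries: Col3a1, all but absent from 1 library, Col23a1, present at a similar level in all, and Col8a1, which had the smallest p between groups. The sequences are RefSeq's, build GRCm38.p6, 250 bases before each annotated start, 5′ to 3′ on the gene's strand, and none overlaps an annotated exon. Capitals mark matches on either strand to the CCAAT box (CCAAT), the TATA box (TATAAA) and the GC box (GGGCGG).
Col3a1, chr1:45311288-45311537, plus strand: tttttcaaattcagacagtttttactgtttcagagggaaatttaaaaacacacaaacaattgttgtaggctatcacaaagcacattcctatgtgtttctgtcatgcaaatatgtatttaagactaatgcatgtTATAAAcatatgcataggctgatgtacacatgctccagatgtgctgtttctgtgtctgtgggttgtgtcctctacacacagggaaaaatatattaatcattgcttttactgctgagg
Col23a1, chr11:51289670-51289919, plus strand: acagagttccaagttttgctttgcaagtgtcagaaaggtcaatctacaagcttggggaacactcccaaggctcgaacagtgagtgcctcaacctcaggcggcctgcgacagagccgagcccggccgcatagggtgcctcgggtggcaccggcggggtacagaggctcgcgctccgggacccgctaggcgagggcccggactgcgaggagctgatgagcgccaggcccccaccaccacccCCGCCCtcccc
Col8a1, chr16:57754738-57754987, minus strand: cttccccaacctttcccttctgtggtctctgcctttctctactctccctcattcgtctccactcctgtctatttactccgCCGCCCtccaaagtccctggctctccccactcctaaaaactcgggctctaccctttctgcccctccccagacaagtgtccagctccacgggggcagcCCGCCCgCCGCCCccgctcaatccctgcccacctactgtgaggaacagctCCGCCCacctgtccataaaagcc
Col3a1 held 1 match, to the TATA box sequence, whose first base lies 117 bases before the start. Col23a1 held 1 match to the GC box and Col8a1 held 4. Whether any of these matches acts in transcription was not tested. The RefSeq source held 38 windows for 35 of the 44 collagens, some genes having more than 1 start. These windows run past the start as well, to base 45311587 for Col3a1. A GC box was found in 22 of the 38 (57.9%) against 32.7% of all 32851 windows, a CCAAT box in 13 (34.2% against 33.8%) and a TATA box in 5 (13.2% against 12.4%). Col4a1 and Col4a2 lie head to head on opposite strands, with annotated starts 21 bases apart, and Col4a6 and Col4a5 likewise with 1343 bases between starts. The sources used here do not say whether reads were counted by strand, so reads from the first bases of Col4a1 and Col4a2 may not be separable.

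Wild-type 1 and Arl13b-/- 2 stood apart from the other libraries. Pearson correlations across the genes kept, which are not independent replicates, were 0.995 between wild-type 2 and 3 and 0.995 between Arl13b-/- 1 and 3, but 0.702 and 0.721 between Arl13b-/- 2 and the rest of its group and 0.897 and 0.898 between wild-type 1 and the rest of its group. The comparison was therefore made over all 6 libraries and over wild-type 2 and 3 against Arl13b-/- 1 and 3, called the 4 similar libraries. The labels give no reason for the difference, and what these libraries hold (their dissection or their labels) could not be checked, so their values are those of the libraries as labelled. In these 4, Ddx3y, a gene of the Y chromosome, had 1093 and 1258 normalized counts in wild-type and 0 and 1.23 in Arl13b-/-, so that sex and genotype cannot be told apart there. Xist, made from an inactive X chromosome, had 15101 to 19017 in wild-type 1 and Arl13b-/- 1 and 3, but 244 in Arl13b-/- 2, where Ddx3y was at 0. Summed counts of 12 neuron markers were 321122 in wild-type 1 and 770103 in Arl13b-/- 2, against 159181 to 168544 in the 4. Those of 16 meningeal and head mesenchyme markers were 16947 and 1783, against 19483 to 25301. In Arl13b-/- 2, Foxc2 and Foxd1 were among the genes of that list at 0. Arl13b did not differ between groups beyond the spread of the libraries (difference −0.14 ± 0.20, SE, limma adjusted p = 0.990), so its level is no check of the labelled genotype.

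In all 6 libraries, most collagens had a lower mean in those labelled Arl13b-/-, but no collagen passed the test. Of the 39 collagens kept, 36 had a mean difference below 0 and 3 above, with a median of −1.06 on the log2 scale, where 49.8% of all genes kept were below 0 and their median was 0.0026. The adjusted p in limma was 0.990 for each of the 39 except Col9a1 (0.992), and is not repeated for every difference over 6 libraries. The count past an adjusted p of 0.05 in limma was 0 of 39, with 0% of the 14249 genes called. At an unadjusted p under 0.05, 3 of 39 (7.69%) were lower and 0 higher, against 1.03% and 0.112% of all genes (1.14% in either direction). The 3 were Col8a1, Col17a1 and Col7a1. The groups of 3 did not overlap for 5 of 39 (12.8%), all lower in Arl13b-/-, against 3.59% of all genes lower and 4.67% higher. These were the same 3 with Col4a4 and Col6a3. Over 3 against 3, an exact two-sided permutation test of 1 gene cannot go below 0.1, the value each of the 5 reached.

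Many of the low means, though not all, rested on Arl13b-/- 2. Collagens summed to 59407, 120135 and 77178 normalized counts in the wild-type libraries, and to 65933, 5553 and 80654 in the Arl13b-/- libraries, in the order of their numbers. That is 0.0153% of all counts in Arl13b-/- 2, against 0.214% to 0.437% in the other 5 libraries. Without Arl13b-/- 2, 23 of the 39 were below 0 and 16 above, where the median over all genes kept was 0.029, and no collagen passed. For 6 (Col4a4, Col6a4, Col8a1, Col9a2, Col9a3 and Col19a1) the difference then lay further down than with it, as for Col8a1 (−1.28 against −1.09). In bulk tissue, fewer cells of a type and less RNA per cell cannot be told apart.

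**Figure D1:**
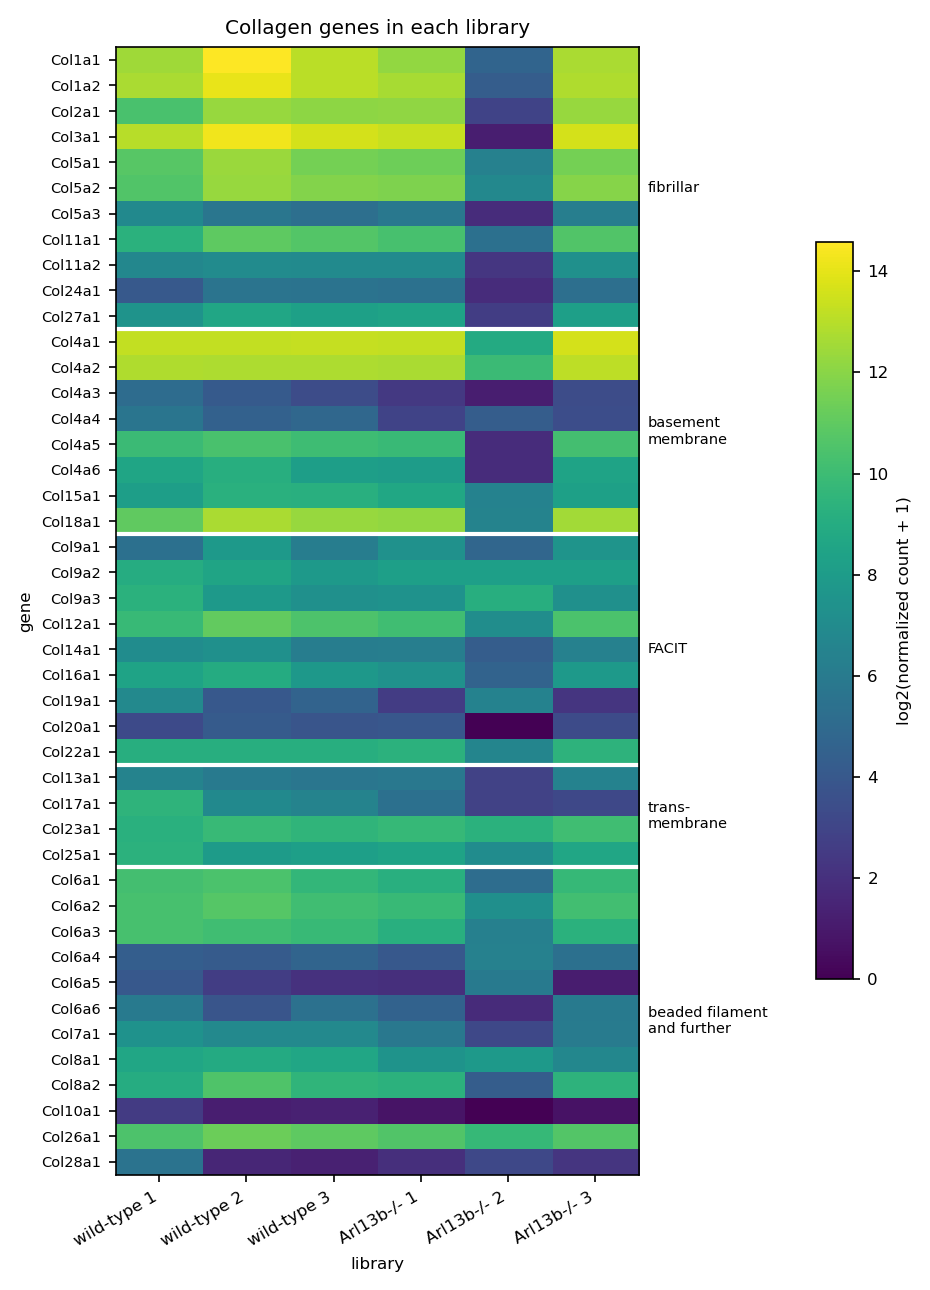
The 44 collagen genes (rows, by class) in the 6 libraries (columns), coloured by log2 of the normalized count plus 1. The column of Arl13b-/- 2 is dark for the fibrillar collagens and for Col4a5 and Col4a6, and stays bright for Col26a1, Col23a1, Col9a2 and Col9a3.

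In the 4 similar libraries the differences were smaller and no collagen passed either. Of 39, 26 were below 0 and 13 above, with a median of −0.28, against 41.2% of all genes below 0 and a median of 0.023. Past an adjusted p of 0.05 in limma were 0 of 39, against 0.253% of all genes (36 of 14249). At an unadjusted p under 0.05, 10 of 39 (25.6%) were lower, against 6.33% of all genes, and 2, Col22a1 and Col25a1, were higher, against 8.08%. The 10 were Col1a1, Col1a2, Col4a4, Col6a3, Col7a1, Col8a1, Col15a1, Col17a1, Col19a1 and Col26a1. The groups of 2 did not overlap for 14 lower collagens (35.9%, against 18.1% of all genes) and for 3 higher ones, against 29.3%. By class, the median was −0.27 for fibrillar, −0.17 for basement membrane and −0.41 for the other collagens, against −1.25, −1.27 and −0.56 over all 6. Without wild-type 2 the medians of the 4 were −0.078, 0.063 and −0.12, and without wild-type 3 they were −0.47, −0.33 and −0.55. The median over all genes kept was 0.016 without wild-type 2 and 0.032 without wild-type 3.

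**Figure D2:**
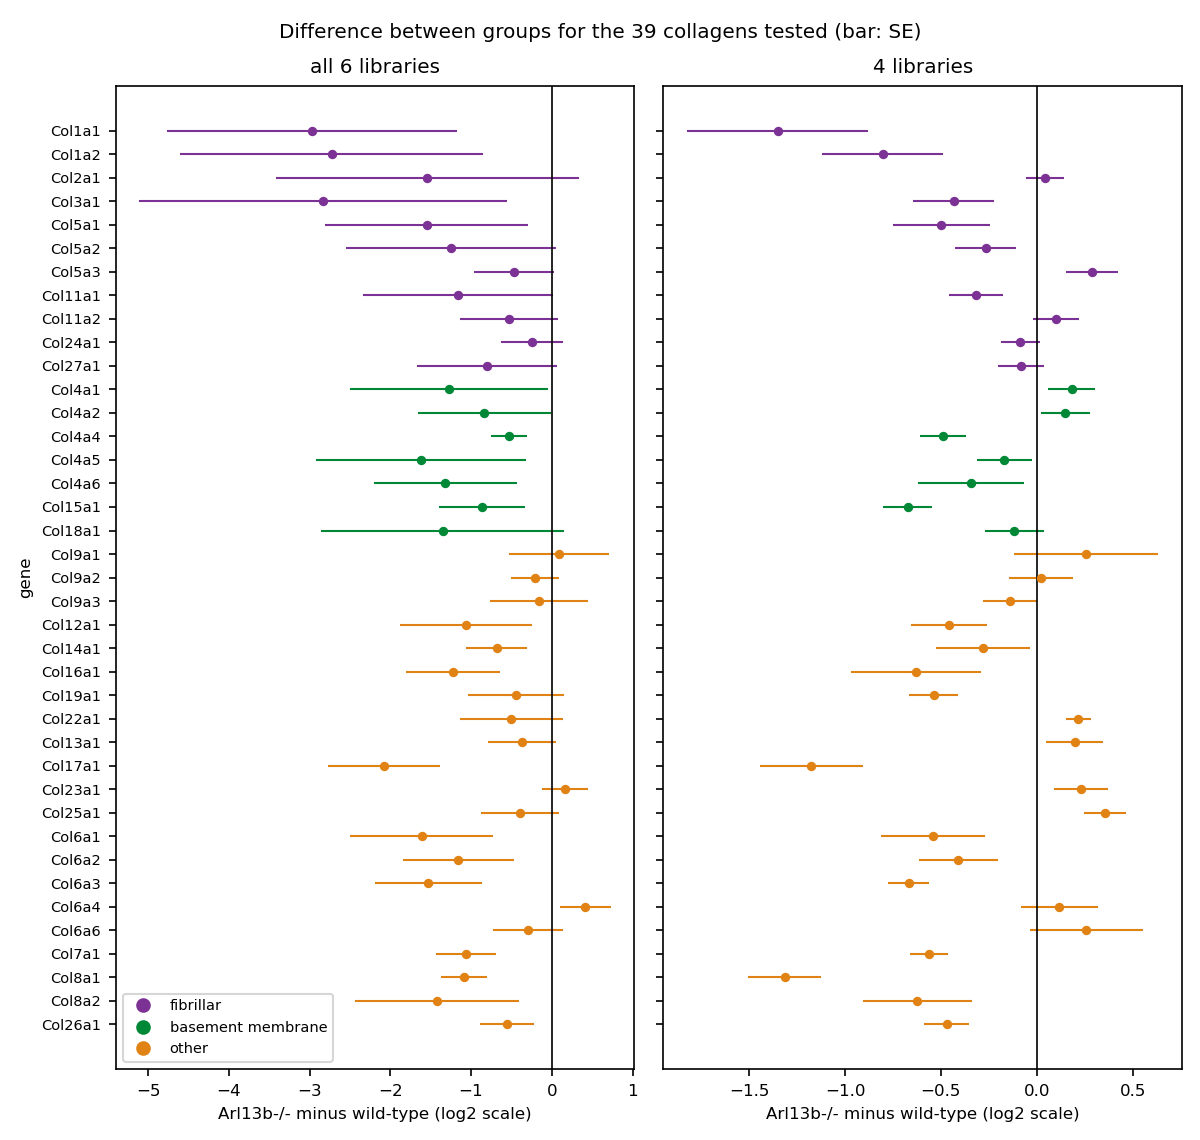
Difference of means, Arl13b-/- minus wild-type on the log2 scale, for the 39 collagens tested, with bars of 1 SE, over all 6 libraries (left) and the 4 similar libraries (right). The horizontal axes differ. Differences on the left reach −2.97 with wide bars, and on the right Col1a1 (−1.35), Col8a1 (−1.32) and Col17a1 (−1.17) lie lowest.

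Fibrillar collagens were the most abundant in the 4 similar libraries and were nearly lost from Arl13b-/- 2. Per kilobase of the longest coding transcript, Col3a1, Col1a1 and Col1a2 ranked 1 to 3 of the 44 in the mean of the 4. Col1a1, the main chain of type I collagen, had 5848, 24398 and 8669.7 normalized counts in the wild-type libraries 1 to 3 and 4798, 24.9 and 6683 in the Arl13b-/- libraries. Wild-type 2 was far above all others and Arl13b-/- 2 far below, and Arl13b-/- 3 was above wild-type 1, so the groups of 3 overlapped. The variance-stabilised level was 13.40 ± 1.06 (SD, n = 3) and 10.43 ± 3.57, a difference of −2.97 ± 1.80 (SE, limma adjusted p = 0.990). In the 4 similar libraries it was −1.35 ± 0.47 (adjusted p = 0.297), and without wild-type 2 it was −0.61. Of the 16 mesenchyme markers, 9 were highest in wild-type 2 among the 4, Postn most unevenly with 3058 counts against 260.2 to 303. The rest were not, with Foxc1 at 885 in wild-type 2 and 749 to 943 in the other 3, and Zic1 lowest there at 7659. The part of such cells in the Col1a1 result was not tested.

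Col1a2, the partner chain of type I collagen, had 6688, 17298 and 8502 normalized counts in wild-type and 6465, 18.3 and 7413 in Arl13b-/-. The order of the 6 libraries was the same as for Col1a1, with wild-type 2 highest and Arl13b-/- 2 far below the rest. Its difference was −2.73 ± 1.87 in all 6 and, in the 4, −0.80 ± 0.32 (SE, limma adjusted p = 0.342), and −0.29 without wild-type 2. Col3a1, which forms type III fibrils beside type I, had 8381, 19623 and 12751 in wild-type and 10605, 1.31 and 12888 in Arl13b-/-. The value in Arl13b-/- 2 is that of 1 read, and in the 4 similar libraries the groups overlapped (−2.84 ± 2.28 in all 6, −0.43 ± 0.21 in the 4, adjusted p = 0.427). Col2a1, the fibrillar collagen of cartilage that neuroepithelium also makes, had 1335, 5202 and 4299 in wild-type and 4636, 6.65 and 5118 in Arl13b-/-. The 4 similar libraries were close to each other (−1.54 ± 1.88 in all 6, 0.042 ± 0.10 in the 4, adjusted p = 0.884), and wild-type 1 lay at 27.7% of their mean. The 9 cartilage markers did not share 1 pattern. Acan, Matn1, Matn3 and Comp had at most 18.2 counts in any library and Cnmd and Matn4 at most 99.6, the value of Matn4 in Arl13b-/- 2. Sox5 had 1271 to 1809 in the 4 but more in wild-type 1 (3429) and Arl13b-/- 2 (3833). Sox9 had 5597 to 6207 in the 4 and less in wild-type 1 (2256) and Arl13b-/- 2 (198). Hapln1, a link protein of cartilage and brain matrix, had 27.3, 484 and 399.9 in wild-type and 352, 6.55 and 455 in Arl13b-/-, low like Col2a1 in wild-type 1 and Arl13b-/- 2. Col11a1, a minor fibril chain, had 639, 1997 and 1605 in wild-type and 1267, 40.6 and 1596 in Arl13b-/- (−1.16 ± 1.17 in all 6, −0.32 ± 0.14 in the 4, adjusted p = 0.387). Among the 4, both Arl13b-/- values lay below the wild-type ones, Arl13b-/- 3 by a narrow margin.

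All 11 fibrillar collagens were lower in Arl13b-/- 2 than in each of the 4 similar libraries and under 10% of their mean, the highest being Col24a1 at 5.99%. The summed mesenchyme markers were also lowest in that library, as given above, and their part was not tested. By comparison, 49.5% of all genes kept were below the 4 in that library and 10.1% were under 10% of their mean. Of the other 6 fibrillar members, Col5a1 and Col5a2, which start fibrils together with type I, had between 2598 and 5260 counts in the 4 and 85.0 and 113 in Arl13b-/- 2. Col5a3, Col11a2, Col24a1 and Col27a1 had between 38.7 and 386 in the 4 and at most 5.23 in Arl13b-/- 2. In the 4 similar libraries, the differences of these 6 ran from −0.50 (Col5a1) to 0.29 (Col5a3). In wild-type 1, 8 of the 11 were below the 4 similar libraries and only Col5a3 was above, where 46.7% of all genes kept were below and 40% above.

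**Figure D3:**
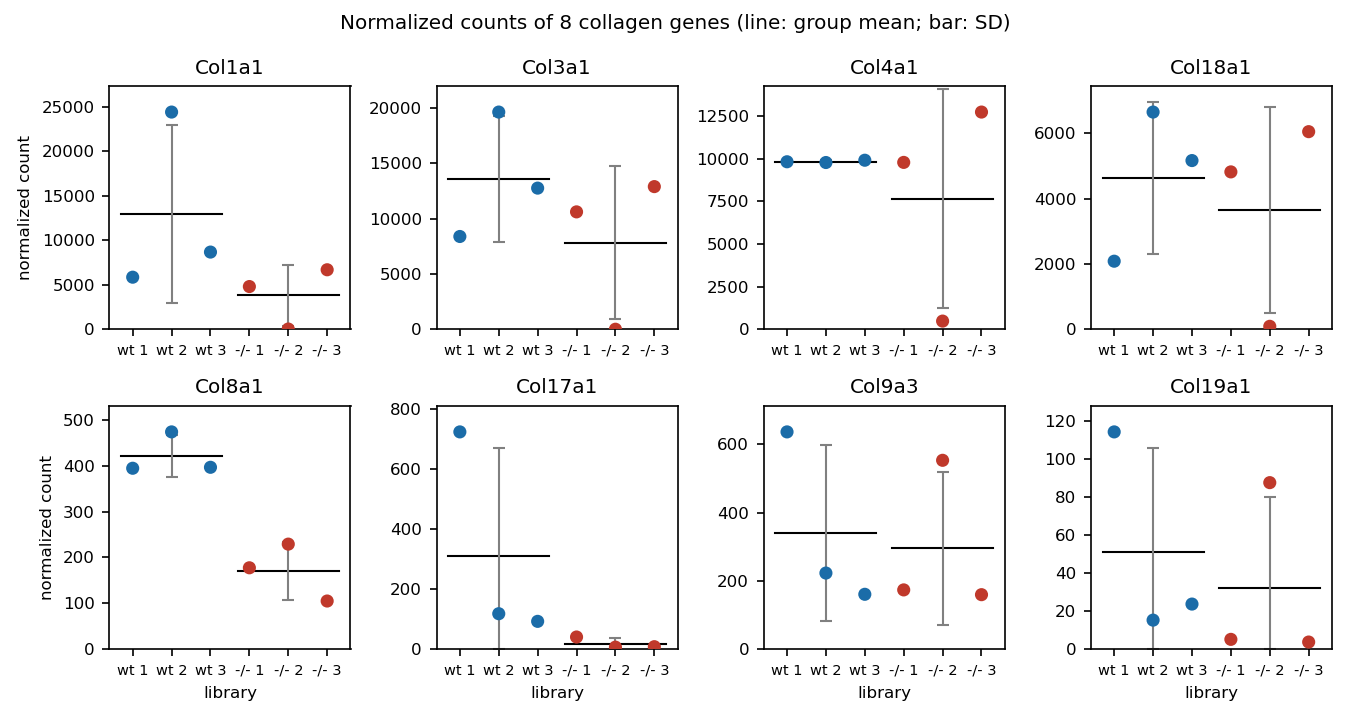
Normalized counts of 8 collagens in each library (blue, wild-type, wt; red, Arl13b-/-, -/-), with the group mean as a line and the SD as a bar that ends at 0. Col8a1 and Col17a1 show no overlap between groups, Col1a1, Col3a1, Col4a1 and Col18a1 are lowest in Arl13b-/- 2, and Col9a3 and Col19a1 are highest in wild-type 1 and Arl13b-/- 2.

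Among the basement membrane collagens, the abundant Col4a1 and Col4a2 were nearly equal in all wild-type libraries, and Col15a1 and Col4a4 had lower means in Arl13b-/-. Col4a1, the main chain of the basement membrane sheet, had 9813, 9768 and 9902 normalized counts in wild-type and 9775, 478 and 12724 in Arl13b-/-. The wild-type libraries were nearly equal, wild-type 1 included (13.27 ± 0.01, SD, n = 3), Arl13b-/- 1 matched them, Arl13b-/- 3 lay above and Arl13b-/- 2 far below. The difference was −1.27 ± 1.22 (SE, limma adjusted p = 0.990) in all 6 and 0.18 ± 0.12 (adjusted p = 0.558) in the 4. Leaving out Arl13b-/- 1 gave a difference of 0.37 and leaving out Arl13b-/- 3 one of −0.0087, so the sign rests on Arl13b-/- 3. The 12 endothelial markers summed to 7858 and 8096 in wild-type 2 and 3, 8603 in Arl13b-/- 1, 1438 in Arl13b-/- 2 and 10461 in Arl13b-/- 3, and to 9330 in wild-type 1. Their sum was thus also highest in Arl13b-/- 3, but not all of them were. Pecam1, Cdh5, Kdr, Flt1 and Emcn were highest there, whereas Tek, Tie1, Cldn5, Esam, Plvap, Erg and Sox17 were highest in other libraries. Cldn5 had 1559 in wild-type 1 and 592 in Arl13b-/- 3, and Plvap had 761 in Arl13b-/- 2. The part of endothelial cells was not tested. Col4a2, the partner of Col4a1, had 7334, 7143 and 6916 in wild-type and 6776, 996 and 8971 in Arl13b-/- (−0.83 ± 0.82 in all 6, 0.15 ± 0.13 in the 4, adjusted p = 0.658). As for Col4a1, leaving out Arl13b-/- 1 raised the difference (0.35) and leaving out Arl13b-/- 3 turned the sign (−0.052).

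Col18a1, a basement membrane proteoglycan whose end fragment is endostatin, had 2086, 6657 and 5171 normalized counts in wild-type and 4823, 90.1 and 6057 in Arl13b-/-. Its groups overlapped with and without the libraries that stood apart (−1.35 ± 1.5 in all 6, −0.12 ± 0.15 in the 4, SE, limma adjusted p = 0.771). Col15a1, its relative in vessel and muscle basement membranes, had 284, 612 and 593 in wild-type and 407, 86.4 and 306 in Arl13b-/-. The 2 wild-type libraries of the 4 were close to each other and above both Arl13b-/- libraries, while wild-type 1 was below them. The difference was −0.86 ± 0.54 in all 6 (adjusted p = 0.990) and −0.67 ± 0.13 in the 4 (adjusted p = 0.123), or −0.85 without Arl13b-/- 1. Col15a1 passed in all 6 with library weights (−0.87, limma adjusted p = 0.0457), whose estimation limma warned had not converged. Col4a5 and Col4a6, an X-linked pair that share a sheet in epithelial and muscle basement membranes, were down to 2 reads each in Arl13b-/- 2. Col4a6 had 375, 564 and 291 counts in wild-type and 268, 2.62 and 354 in Arl13b-/- (−1.32 ± 0.89 in all 6, −0.34 ± 0.28 in the 4, adjusted p = 0.629), with groups that overlapped. Col4a5 had 982 to 1354 in wild-type and 948, 2.59 and 1189 in Arl13b-/-. For this X-linked pair, sex and genotype cannot be told apart in the 4. Col4a4, a chain of the kidney and inner ear basement membrane, was low, with 49.9, 21.9 and 27.6 in wild-type and 6.58, 18.3 and 9.88 in Arl13b-/-. Its groups did not overlap, and the difference was −0.53 ± 0.22 in all 6 (adjusted p = 0.990) and −0.49 ± 0.12 in the 4 (adjusted p = 0.184). Col4a3, its partner, was under the filter, with 9.48 to 34.9 in wild-type and 1.31 to 9.27 in Arl13b-/-.

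Among the further network and beaded filament collagens, Col8a1 had the smallest p in both comparisons, while over all 6 libraries Col6a1, Col6a2, Col6a3 and Col8a2 had larger differences with wider errors. Col8a1, a short-chain collagen of vessel walls and of the matrix under the corneal endothelium, had 395, 474 and 397 normalized counts in wild-type and 177, 229 and 105 in Arl13b-/-. All 3 Arl13b-/- libraries lay below all 3 wild-type ones, and the libraries that stood apart lay with their own groups. The level was 8.93 ± 0.13 (SD, n = 3) and 7.84 ± 0.41. The difference was −1.09 ± 0.28 (SE, limma adjusted p = 0.990, 0.00921 before adjustment). In the 4 similar libraries the difference was −1.32 ± 0.19 (adjusted p = 0.0803). It was −1.58 without Arl13b-/- 1, −1.05 without Arl13b-/- 3, −1.20 without wild-type 2 and −1.43 without wild-type 3. Col8a1 passed in all 6 with library weights (−1.63, limma adjusted p = 0.00833), whose estimation limma warned had not converged. Many other genes also passed with these weights, as given in the last section. The 10 markers of choroid plexus and cortical hem summed to 6326 to 28882 in wild-type and 864 to 5912 in Arl13b-/-. These sums lean on Ttr, with 25702, 1211 and 1322 in wild-type and 126, 1.32 and 227 in Arl13b-/-. Otx2 had 887, 2600 and 3028 in wild-type and 3411, 0 and 4051 in Arl13b-/-. In the 4, 3 of the 10 (Ttr, Clic6 and Wnt2b) passed an adjusted p of 0.05 in limma, against 0.253% of all genes. Among the 4, 8 of the 10 had lower means in Arl13b-/- and 2, Otx2 and Kl, had higher ones, and Otx2 was at 0 in Arl13b-/- 2. Vessel markers mostly went the other way in the 4. Of 12 endothelial markers, 9 had higher means in Arl13b-/- and 3 lower, with a median difference of 0.20. Of 8 markers of pericytes, cells of the vessel wall, 7 were higher and 1 lower, with a median of 0.20. Among all genes, 41.2% were lower there. Over all 6 libraries, 11 of the 12 and 8 of the 8 were lower. The part of any of these cells in the Col8a1 result was not tested. Col8a2, the other type VIII chain, had 509.7 to 1490.3 in wild-type and 656, 18.3 and 678 in Arl13b-/- (−1.42 ± 1.02 in all 6, −0.62 ± 0.28 in the 4, adjusted p = 0.400).

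Type VI chains, which form beaded filaments around cells, had lower means in Arl13b-/- 1 and 3 for Col6a1, Col6a2 and Col6a3. Col6a3 had 1270.0, 1107 and 897 normalized counts in wild-type and 579, 80.1 and 626 in Arl13b-/-. The groups did not overlap, and the difference was −1.53 ± 0.66 (SE, limma adjusted p = 0.990) in all 6 and −0.67 ± 0.11 in the 4 (adjusted p = 0.0983). Col6a2 had 1290.5, 1695 and 1118 in wild-type and 902, 152 and 1154 in Arl13b-/-, where Arl13b-/- 3 was above wild-type 3 (−1.16 ± 0.69 in all 6, −0.41 ± 0.21 in the 4, adjusted p = 0.445). Col6a1 had 812 to 1369 in wild-type and 579, 36.7 and 854 in Arl13b-/-. The related chains Col6a4 and Col6a5, named here after their values were seen, went the other way in Arl13b-/- 2, with 83.7 counts of Col6a4 against 15.3 to 40.1 elsewhere and 62.8 of Col6a5 against 1.24 to 15.0. Col6a6 had 2.41 there against 13.1 to 60.9.

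Col26a1, a collagen first found in testis and ovary, had 1475, 2552 and 1978 normalized counts in wild-type and 1584, 864 and 1624 in Arl13b-/-. Both Arl13b-/- libraries of the 4 were below both wild-type ones (−0.56 ± 0.33 in all 6, −0.47 ± 0.12 in the 4, SE, limma adjusted p = 0.196), but above wild-type 1. Per kilobase it ranked 8 of the 44 in the 4 similar libraries and 1 in Arl13b-/- 2. Col10a1, the collagen of hypertrophic cartilage, had at most 4.83 counts in any library. Col28a1, a collagen of peripheral nerve, had 45.6 in wild-type 1 and 1.58 to 7.86 elsewhere. With Col4a3, Col6a5 and the FACIT member Col20a1 (0 to 17.2 counts), these were the 5 members under the filter and were not tested.

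Col17a1 and Col7a1, the collagens that anchor skin epithelium to its basement membrane, did not overlap between groups. Col17a1, a transmembrane collagen of hemidesmosomes, had 724, 118 and 92.4 normalized counts in wild-type and 40.2, 6.48 and 8.0 in Arl13b-/-. Wild-type 1 was highest by far and all Arl13b-/- libraries lay below all wild-type ones. The difference was −2.08 ± 0.69 (SE, limma adjusted p = 0.990) in all 6 and −1.17 ± 0.27 in the 4 (adjusted p = 0.166), or −1.57 without Arl13b-/- 1. Col17a1 passed in all 6 with library weights (−1.66, limma adjusted p = 0.0401), whose estimation had not converged. Col7a1, which forms anchoring fibrils, had 169, 113 and 116 in wild-type and 56.3, 7.85 and 64.9 in Arl13b-/-. Its groups were apart too (−1.06 ± 0.37 in all 6, adjusted p = 0.990, and −0.56 ± 0.10 in the 4, adjusted p = 0.113). The 12 surface ectoderm markers moved with them, with sums of 19199, 4624 and 2081 in wild-type and 875, 214 and 300.4 in Arl13b-/-, and groups that did not overlap for 12 of 12, all lower, against 3.59% of all genes. Krt5, a keratin of basal skin cells, had 5392, 917 and 487 in wild-type and 179, 0 and 2.46 in Arl13b-/-. The part of skin cells in the Col17a1 and Col7a1 results was not tested.

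**Figure D4:**
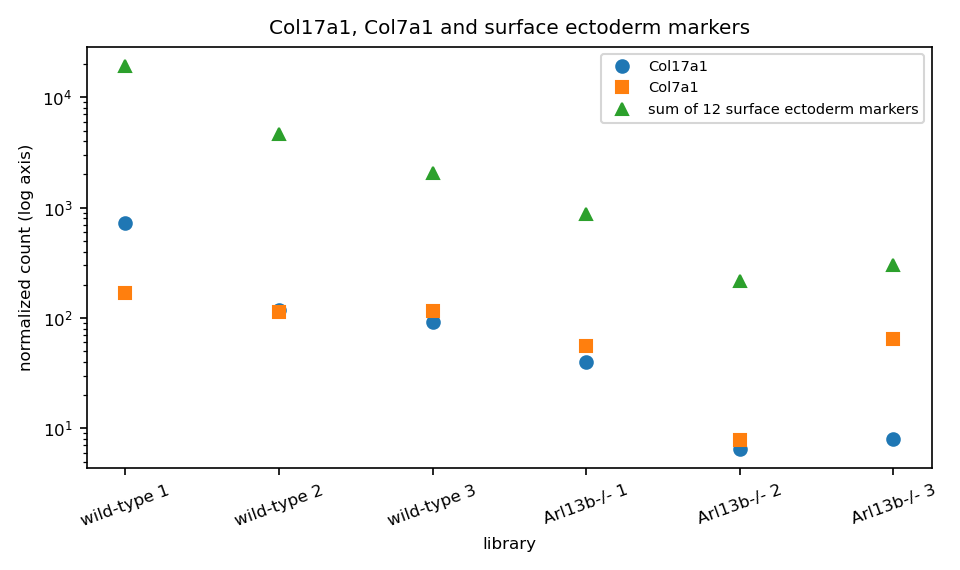
Normalized counts (log axis) of Col17a1, Col7a1 and the sum of 12 surface ectoderm markers in each library. All are highest in wild-type 1 and lowest in Arl13b-/- 2, and the Arl13b-/- libraries lie below the wild-type ones for each.

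The remaining 3 transmembrane collagens had higher means in Arl13b-/- among the 4 similar libraries, and none passed the test. Col23a1 had 610.4, 913 and 750.3 normalized counts in wild-type and 868, 629.5 and 1113 in Arl13b-/-. No library fell far from the rest, Arl13b-/- 2 lying at 69.1% of the mean of the 4 (0.17 ± 0.28, SE, in all 6, limma adjusted p = 0.990, and 0.23 ± 0.14 in the 4, adjusted p = 0.518). Col25a1, a collagen of neurons that is shed and binds amyloid, had 656, 253 and 299 in wild-type and 344, 134 and 397 in Arl13b-/-. In the 4 similar libraries the Arl13b-/- values were above the wild-type ones (−0.39 ± 0.48 in all 6, 0.35 ± 0.11 in the 4, adjusted p = 0.257), but wild-type 1 was highest of all and Arl13b-/- 2 lowest. Col13a1, a collagen of adhesion sites, had 89.4, 60.3 and 51.3 in wild-type and 57.1, 6.37 and 87.5 in Arl13b-/- (−0.37 ± 0.42 in all 6, 0.20 ± 0.15 in the 4, adjusted p = 0.600), and its groups overlapped.

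FACIT collagens did not share 1 pattern across the libraries. Col12a1, which coats type I fibrils, had 920.4, 2117 and 1438 normalized counts in wild-type and 1108, 140.0 and 1416 in Arl13b-/-. In the 4 the Arl13b-/- values were under the wild-type ones (−1.06 ± 0.82 in all 6, −0.46 ± 0.20 in the 4, SE, limma adjusted p = 0.376). Col14a1, its relative, had 135, 156 and 70.2 in wild-type and 73.8, 18.3 and 83.4 in Arl13b-/- (−0.68 ± 0.38 in all 6, −0.28 ± 0.25 in the 4, adjusted p = 0.661). Col16a1 had 347, 499.8 and 214 in wild-type and 162, 23.6 and 226 in Arl13b-/- (−1.23 ± 0.58 in all 6, −0.63 ± 0.34 in the 4, adjusted p = 0.467), so that wild-type 3 lay between the Arl13b-/- libraries of the 4. For Col14a1 wild-type 3 lay below both. Col22a1, found at tissue junctions, had 555, 573 and 567 in wild-type and 663, 99.5 and 682 in Arl13b-/-. Among the 4 it was higher in Arl13b-/- (−0.50 ± 0.64 in all 6, 0.22 ± 0.065 in the 4, adjusted p = 0.246), with wild-type 1 at the level of its group.

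Col19a1, which neurons of the forebrain express, had 114, 15.2 and 23.7 normalized counts in wild-type and 5.12, 87.6 and 3.71 in Arl13b-/-. The libraries that stood apart were both far above the rest, and among the 4 the Arl13b-/- values were lower (−0.44 ± 0.59 in all 6, −0.54 ± 0.13 in the 4, SE, limma adjusted p = 0.179), at counts of few reads. The type IX chains, which decorate type II fibrils, did not move together, and they are named here after their values were seen. Col9a3 had 636 and 553 in wild-type 1 and Arl13b-/- 2, against 159 to 223 in the 4, whereas Col9a1 had 40.2 and 27.1 against 71.5 to 239.8. Col9a2 had 515 and 304 against 238 to 360.1. Per kilobase, the ratio of Col9a3 to Col9a2 was 1.19 and 1.75 in wild-type 1 and Arl13b-/- 2 and 0.506 to 0.646 in the 4.

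Ratios between chains of 1 collagen type, per kilobase of the longest coding transcript in GENCODE M21 (found for 44 of 44), were set side by side over the 6 libraries for 4 further types. Col4a1 to Col4a2 was 1.30, 1.33 and 1.40 in the wild-type libraries, 1.41 in Arl13b-/- 1 and 1.38 in Arl13b-/- 3, but 0.468 in Arl13b-/- 2. Col1a1 to Col1a2 was 0.789, 1.27 and 0.920 in wild-type and 0.669, 1.22 and 0.813 in Arl13b-/-, highest in wild-type 2. The value of Arl13b-/- 2 rests there on 19.0 and 14.0 reads. Col8a1 to Col8a2 was 0.657, 0.270 and 0.446 in wild-type, 0.229 and 0.131 in Arl13b-/- 1 and 3, and 10.6 in Arl13b-/- 2, where Col8a2 was nearly lost and Col8a1 was not. Col5a1 to Col5a2 ranged from 0.596 to 0.894 over the 6 libraries, Arl13b-/- 2 included.

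In Arl13b-/- 2, then, the collagens did not share 1 level of loss. Of the 39 tested, 33 were below each of the 4 similar libraries, 3 (Col4a4, Col8a1 and Col9a2) were among them and 3 (Col6a4, Col9a3 and Col19a1) were above, where 49.5% of all genes kept were below and 43.5% above. Under 10% of the mean of the 4 were 23 of the 39, against 10.1% of all genes. The median level relative to that mean was 2.46% for fibrillar, 4.53% for basement membrane, 9.98% for beaded filament and further, 17.8% for FACIT and 25.7% for transmembrane collagens. In wild-type 1, 16 of 39 were below the 4 and 11 above, against 46.7% and 40% of all genes, and 0 were under 10% of the mean of the 4, against 0.393%. The medians there were 52.5% for fibrillar, 93.1% for basement membrane, 132% for beaded filament and further, 133% for FACIT and 171% for transmembrane collagens. Both were above the 4 for Col9a3 and Col19a1, and also for Col6a5 and Col28a1, which were under the filter. The 12 markers of radial glia and dividing cells summed to 46552 in wild-type 1 and 4184 in Arl13b-/- 2, against 137935 to 173449 in the 4, and the part of these cells was not tested.

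**Figure D5:**
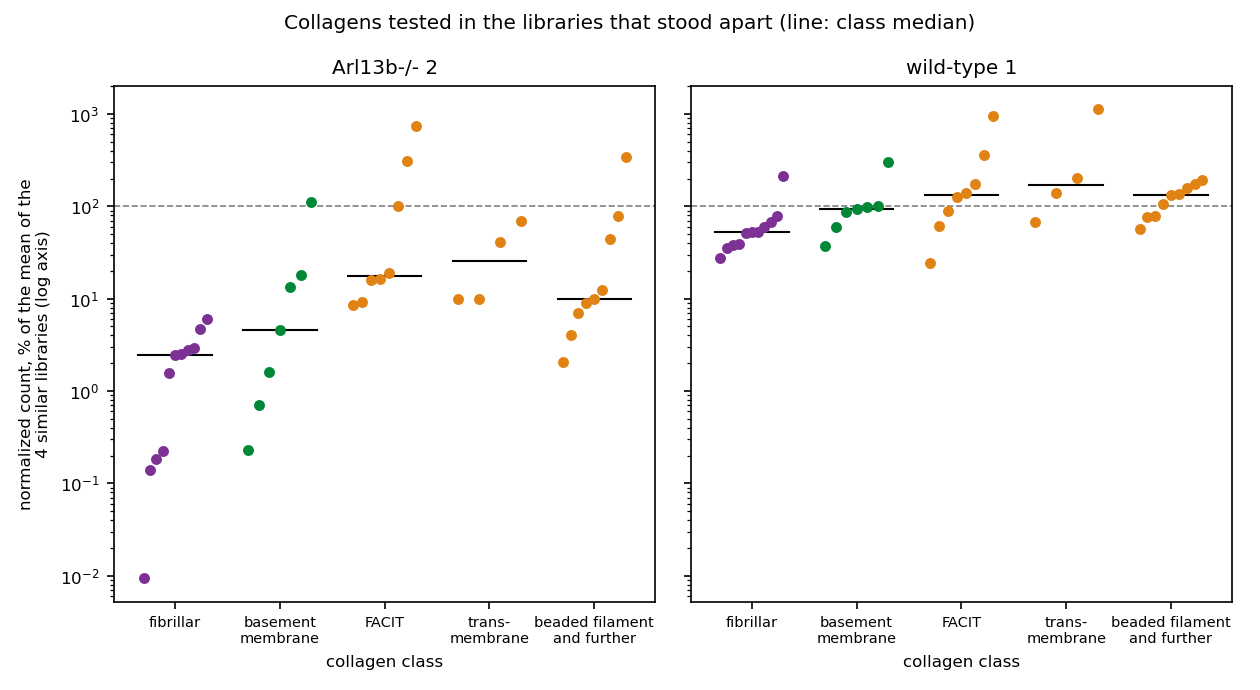
Level of each tested collagen in Arl13b-/- 2 (left) and wild-type 1 (right) as a percent of its mean in the 4 similar libraries (log axis), by class, with the class median as a line. In Arl13b-/- 2 the fibrillar median is 2.46% and the transmembrane median 25.7%, and in wild-type 1 they are 52.5% and 171%.

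The genes that process collagen did not pass the test either. Of 44 tested genes in 3 lists (19 enzymes and chaperones, 16 genes of trimming, cross-linking and cleavage, and 9 receptors), 0 passed in limma in all 6 libraries, with 0 at an unadjusted p under 0.05, and 0 in the 4, with 5 higher and 1 lower at that level (13.6%, against 14.4% of all genes). Over the 6, 40 of 44 had a difference below 0, with a median of −0.45, against 49.8% of all genes and 0.0026. In the 4, 27 were below 0 and 17 above, with a median of −0.086. P4ha1, a subunit of the prolyl hydroxylase that stabilises the helix, had 1503, 1302 and 1254 normalized counts in wild-type and 1753, 664 and 2413 in Arl13b-/-. It was higher in both Arl13b-/- libraries of the 4 (0.072 ± 0.47 in all 6, 0.66 ± 0.14 in the 4, SE, adjusted p = 0.156), and lowest in Arl13b-/- 2. Crtap, a partner of prolyl 3-hydroxylase, had 436, 763 and 534 in wild-type and 458, 86.6 and 496 in Arl13b-/- (−0.84 ± 0.58 in all 6, −0.38 ± 0.16 in the 4, adjusted p = 0.366). Tll2, a protease related to the procollagen-trimming Bmp1, had 77.6, 57.5 and 52.0 in wild-type and 85.3, 11.8 and 85.6 in Arl13b-/- (−0.14 ± 0.39 in all 6, 0.37 ± 0.098 in the 4, adjusted p = 0.205). Both Arl13b-/- libraries of the 4 were above wild-type 2 and 3 for Tll2. Loxl1, a cross-linking enzyme, had 820.3, 629 and 470.1 in wild-type and 446, 117 and 543 in Arl13b-/- (−0.85 ± 0.53 in all 6, −0.13 ± 0.15 in the 4, adjusted p = 0.748), with groups that overlapped. The collagen receptor Ddr1, of epithelia and neuroepithelium, had 6730.4, 13529.9 and 12817 in wild-type and 14115, 2080.3 and 15272 in Arl13b-/- (−0.45 ± 0.83 in all 6, 0.16 ± 0.060 in the 4, adjusted p = 0.335). Ddr2, the related receptor of mesenchyme, had 689.7, 1065 and 723 in wild-type and 735, 14.4 and 793 in Arl13b-/- (−1.30 ± 1.05 in all 6, −0.19 ± 0.17 in the 4, adjusted p = 0.672).

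In Arl13b-/- 2 these genes also split, as genes named after their values were seen show. Serpinh1, the collagen chaperone, had 71.8 normalized counts there against 6019 to 15204 elsewhere, and Lox, a cross-linking enzyme, had 5.20 against 893 to 1228. P4hb, Ppib and Plod3, which fold or modify collagen and other proteins, had 6732, 3376 and 1044 there, each over 50% of the mean of the 4. Creb3l1, a transcription factor of secretory cells, and Adamts3, a protease that trims procollagen, were higher there, with 910.0 against 122 to 438 and 1498 against 373 to 1335. Of 19 enzymes and chaperones, 5 were under 10% of the mean of the 4 and 6 were over 50%, where 10.1% and 69.6% of all genes were. Of 16 genes of trimming, cross-linking and cleavage, 4 were under 10% and 5 over 50%, and of 9 receptors 5 and 0.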

How the data were processed

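The data are 1 deposited table of log2-scale values, variance-stabilised from normalized counts by the authors, for 24444 gene symbols in 6 libraries. The submitters' processing notes name build mm9 and the tools Salmon 0.9.1, STAR 2.6.0, DESeq2, DESeq 1.16.1 and CASAVA, without saying what each did. Annotation, filters and strand setting were not given in the sources used here.

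The value of a count of 0 (5.13, shared by all libraries) fixes the transformation, which was inverted to give normalized counts. Each library's commonest lowest count (0.536 to 1.31) served as the worth of 1 read, which puts the depth at 27600000 to 51700000 reads. Between 69.7% and 80% of values under 30 reads lay within 0.05 of a whole number, so no count test was run.

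Genes with a mean at least 1 above the lowest value were kept (14249, with 39 of 44 collagens). They were compared with limma 3.58.1 (R 4.3.3), with a mean-variance trend, two-sided moderated tests and Benjamini-Hochberg adjustment over all genes kept. Differences are between group means on this scale, where changes of low genes appear smaller than they are. The collagens, lists and the comparison of 4 libraries were chosen with earlier results of these data known. Values in every library are given for 8 set collagens, and in each class for the 3 with the smallest p in each comparison and the 2 with the highest mean. Of the further lists, the gene with the smallest p per comparison was named, where the rule allowed up to 3, and others were chosen after their values were seen. Simulated data had 200 changed genes among 14249, with noise drawn independently for each gene and library from that gene's own spread. Unlike in the real data, no library stood apart and no spread was shared across genes, so the shares recovered may not carry over. There, the 6-library comparison recovered 18% of changes of 2 log2 units and the 4-library one 97%. For changes of 1 unit, 0% and 81% were recovered. Alternatives were other filters, scalings, variance models and pseudocounts (1 and 16), library weights, a replicate block and leaving out each library. Libraries of a group differed with a chi-square of at least 10.9 per degree of freedom, so no pair agreed within sampling noise. Figures were drawn with matplotlib 3.10.9.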

Additional observations from a re-analysis of the deposited data

How the results depend on the processing

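Over all 6 libraries, the count of genes past the adjusted threshold in limma was 0, with 163 at an unadjusted p under 0.05, and became 3 with no filter, 214 with library weights and 0 to 4 when 1 library was left out. With library weights, whose estimation limma warned had not converged, 3 collagens (Col8a1, Col15a1 and Col17a1) and 1 processing gene (P4ha1) passed. The same weights gave differences above 0 for Col13a1 (0.32), Col22a1 (0.20), Col25a1 (0.47), Col4a1 (0.31), Col4a2 (0.29), Ddr1 (0.16) and Tll2 (0.33), and quantile normalization did so for Tll2 (0.20). The median of the other collagens was −1.21 on inverted counts with a pseudocount of 1, against −0.56. Library weights moved the fibrillar and basement membrane medians to −0.29 and −0.17, from −1.25 and −1.27, and without Arl13b-/- 2 they were 0.12 and −0.078. With 1 library left out, differences crossed 0 for 17 of the 39 collagens, and among the genes named by the rule for Col11a1 (−1.90 to 0.15), Col13a1 (−0.67 to 0.066), Col18a1 (−2.30 to 0.37), Col22a1 (−0.88 to 0.23), Col23a1 (−0.015 to 0.37), Col2a1 (−2.66 to 0.63), Col4a1 (−2.09 to 0.18), Col4a2 (−1.41 to 0.13), Ddr1 (−0.94 to 0.48), P4ha1 (−0.30 to 0.58) and Tll2 (−0.35 to 0.27). In the 4 similar libraries, 36 genes passed, and 1 with no filter, 59 after quantile normalization, 7 with no trend, 98 with robust moderation and 6 to 725 with 1 library left out. Leaving out a library, which sets 1 library against 2 and assumes that the lone one varies like the others, gave 0 to 5 collagens (5 without Arl13b-/- 1, with Col4a1, Col4a2, Col8a1, Col15a1 and Col17a1, and Col8a1 alone without Arl13b-/- 3) and 0 to 3 processing, maturation and receptor genes. The fit without Arl13b-/- 1, which called the most collagens, also called the most genes of all kinds. The spread of the lone library is unknown in such fits, so these counts cannot show whether collagens stood out. With 1 library left out, the basement membrane median ran from −0.33 to 0.063 and that of the other collagens from −0.55 to −0.12. The fibrillar median ran from −0.47 to −0.078. Differences crossed 0 for 13 of the 39 collagens, and among the genes named by the rule for Col14a1 (−0.66 to 0.094), Col18a1 (−0.30 to 0.063), Col2a1 (−0.093 to 0.18), Col4a1 (−0.0087 to 0.37), Col4a2 (−0.052 to 0.35), Col4a6 (−0.75 to 0.067), Ddr2 (−0.45 to 0.072) and Loxl1 (−0.32 to 0.059), and Col2a1 was −0.0087 after quantile normalization. The cause was not tested. Same-numbered libraries deviated with correlations of −0.71, −0.71 and 0.62. All other pairings of a wild-type with an Arl13b-/- library gave values between 0.65 and 0.71 in size. Because 1 library in each group stood apart, these values cannot show whether libraries of the same number belong together. With the replicate block 0 genes and 0 collagens passed. No paired analysis was possible in the 4 similar libraries because they share 1 number. Values near 1 read, as for Col3a1, Col4a5 and Col4a6 in Arl13b-/- 2, carry wide counting error.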
